A study of Mus musculus with 55 samples.

Results

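Liver RNA of R&Zdel and R&Zflox mice was compared 4 days after the last of repeated injections of carbon tetrachloride (CCl4). These 4 libraries, 2 of each genotype, were chosen by their labels (genotype, chronic damage, and a time point of 4 days) out of 55 samples in the series. R&Zdel mice (labelled Rnf43 and Znrf3 mutant) carried floxed alleles of both genes and an Alb1-CreERT2 transgene, an albumin-driven, tamoxifen-inducible Cre recombinase. Tamoxifen then removed the exons that encode the RING domains in hepatocytes, while the other cells of the liver kept them. R&Zflox mice (labelled Wild-type) carried the same floxed alleles without recombination and, according to the study's methods, received sunflower oil in place of tamoxifen. A supplementary sample sheet instead lists tamoxifen for both genotypes. All 4 were adult C57BL/6 mice listed as male. Tamoxifen was given again during the damage in the R&Zdel mice. The labels mark both genotypes as chronically damaged, although one sentence of the methods gives unrecombined littermates the corn oil vehicle only. A further 7 libraries at 50 and 170 days after CCl4 served to estimate the spread, which made 11 in all. The sample sheet lists both R&Zflox libraries of 170 days under 50 days as well, and the labels were followed. Nothing in the labels says that the 2 libraries of a group came from separate mice, so that p-values measure the spread between these libraries.

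RNF43 and ZNRF3 are transmembrane E3 ubiquitin ligases that remove Frizzled receptors from the cell surface and thereby dampen WNT signalling. Both genes are themselves WNT targets and act as negative feedback. In the liver lobule, WNT ligands from central vein endothelium maintain the pericentral programme of hepatocytes, whereas periportal hepatocytes carry out ureagenesis, gluconeogenesis and much of the secretion of plasma proteins. CCl4 is activated by the pericentral cytochrome Cyp2e1 and kills pericentral hepatocytes first, and repeated injections lead to fibrosis and a ductular reaction.

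Between 27509849 and 30459422 reads were counted on genes per library, and 19590 to 22604 genes had a read. The R&Zdel libraries had reads on 22039 and 22604 genes and TMM factors (edgeR's correction for composition) of 1.27 and 1.42, and the R&Zflox libraries 19694 and 19590 genes and factors of 0.93 and 0.95. Levels are given as CPM, read counts per unit of corrected library size, with replicate 1 before replicate 2. Of 34490 symbols, the 11358 with more than 1 CPM in at least 6 of the 11 libraries were tested by edgeR's quasi-likelihood test. Calls required a p of less than 0.1 after Benjamini-Hochberg adjustment and a change of more than 1 on the log2 scale. In this way 1167 genes (10.3% of those tested) were called higher and 562 (4.95%) lower in R&Zdel livers, together 15.2%. The median log2 fold change was 1.61 among the former and −1.40 among the latter, and 0.06 over all genes tested. Called higher genes were of lower abundance, with a median of 6.76 CPM over the 4 libraries, than called lower genes, with 45.3. The 2 libraries of one genotype did not overlap those of the other for 1725 of the 1729 called genes, and for 68.6% of all genes tested. With each library left out in turn, 975 and 574 genes (without R&Zdel replicate 1), 550 and 339 (without R&Zdel replicate 2), 436 and 351 (without R&Zflox replicate 1) and 728 and 496 (without R&Zflox replicate 2) were called higher and lower. Of the 1729 calls, 0 changed sign, but groups that do not overlap leave hardly any room for such a change when a library is left out. Counting did not use strand, so reads of overlapping genes cannot be told apart. Among the genes named here this touches Rnf43, Sds, Fgg, Lig1, Aqp5, Fmo5 and Alas2. Of 610 genes in the 37 lists described in what follows, 513 were tested. A gene expressed in the 6 R&Zdel libraries of the 11 alone also passes the filter, whereas one expressed in the R&Zflox libraries alone does not. In these bulk samples, fewer cells of a type and less RNA per cell cannot be told apart.

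**Figure D1:**
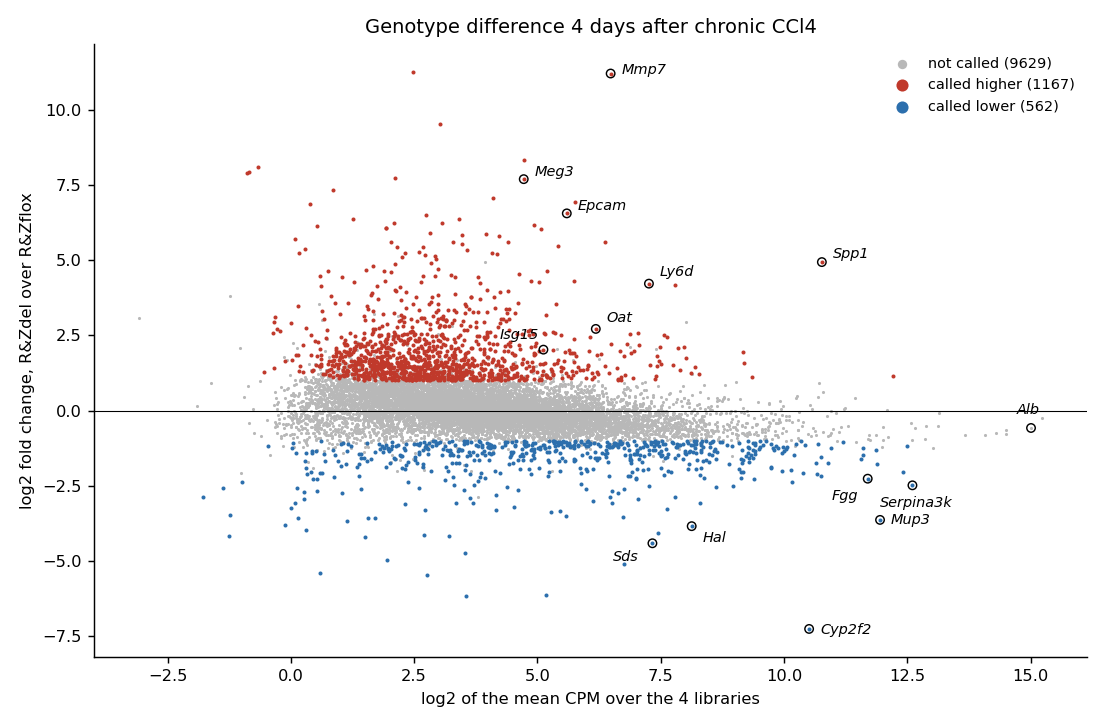
Each point is 1 of the 11358 genes tested. The horizontal axis is the log2 of its mean CPM over the 4 libraries and the vertical axis its log2 fold change, R&Zdel over R&Zflox. Red points are the 1167 genes called higher and blue points the 562 called lower, and several of the most abundant called genes, such as Serpina3k, Mup3 and Fgg, lie below 0.

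The deleted genes were the first check. Rnf43 (chr11:87663087-87735539, mm10, plus strand) was at 10.8 and 5.17 CPM in R&Zflox and 26.2 and 25.9 CPM in R&Zdel livers, and Znrf3 (chr11:5276329-5444847, minus strand) at 5.2 and 4.68 against 19.1 and 18 CPM. Both were higher in the mutant libraries, without overlap (log2 fold change 1.71, SE 0.30, adjusted p = 0.0074 for the former; log2 fold change 1.91, SE 0.22, adjusted p = 0.00155 for the latter). The counts cover whole genes and do not tell the deleted exons from the others, so they do not check the deletion.

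Of 16 WNT feedback and target genes, 13 were tested, 8 were called higher and 0 lower, at a median log2 fold change of 1.22 (10.3% of all genes tested were called higher). The deleted genes Rnf43 and Znrf3 are among the 8, and their counts do not tell the deleted exons from the others. Ccnd1, which encodes cyclin D1, had the highest log2 fold change of the list. It was at 15.7 and 24 CPM in R&Zflox and 73.3 and 87.7 CPM in R&Zdel livers (log2 fold change 2.02, SE 0.29, adjusted p = 0.00356). Tnfrsf19, a receptor of the TNF family, was at 4.7 and 4.51 CPM in R&Zflox and 14 and 17.1 CPM in R&Zdel livers (log2 fold change 1.76, SE 0.28, adjusted p = 0.00532). Sp5, a transcription factor induced by WNT, lay at 1.07 and 0.845 against 3.75 and 3.27 CPM (log2 fold change 1.87, SE 0.34, adjusted p = 0.00875). For these 3 genes, as for Rnf43 and Znrf3, both mutant libraries were above both controls, and the call was kept with each library left out. Axin2, a scaffold of the β-catenin destruction complex, was at 4.13 and 2.01 CPM in R&Zflox and 8.77 and 7.23 CPM in R&Zdel livers (log2 fold change 1.38, SE 0.49, adjusted p = 0.0781), but was lost without any 1 of the 4 libraries (0.95 to 1.99 over the 4 fits). Tcf7, a nuclear partner of β-catenin, had a log2 fold change of 1.22 and was lost without R&Zflox replicate 1, R&Zflox replicate 2 or R&Zdel replicate 1 (0.87 to 1.51 over the 4 fits), and Nkd1, a WNT inhibitor, had 1.02 and was lost without R&Zflox replicate 1, R&Zflox replicate 2 or R&Zdel replicate 2 (0.40 to 1.45 over the 4 fits). Not called were Lgr5 (3.78 and 2.43 against 3.78 and 3.55 CPM), Notum, Tbx3, Myc and Prox1, with log2 fold changes from −0.055 to 0.45. The list had 5 calls with either R&Zflox library left out and 6 with either R&Zdel library left out.

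To show sequence beside these values, the windows from 250 bases before to 50 bases after the RefSeq start sites were searched on both strands for CTTTGAT, the letters bound by TCF/LEF factors. They occur in the windows of 4.29% of 27025 genes. Of the WNT genes, 9 had a window and 2 held a match, Sp5 and Tnfrsf19, both called. The windows follow (RefSeq, GRCm38.p6, 5′ to 3′ on the gene's strand), with the match in capitals, for Sp5 at chr2:70474673-70474972 (plus strand, match from −104 relative to the start site) and Tnfrsf19 at chr14:61037938-61038237 (minus strand, the one of 2 windows that held a match, from −202).
Sp5: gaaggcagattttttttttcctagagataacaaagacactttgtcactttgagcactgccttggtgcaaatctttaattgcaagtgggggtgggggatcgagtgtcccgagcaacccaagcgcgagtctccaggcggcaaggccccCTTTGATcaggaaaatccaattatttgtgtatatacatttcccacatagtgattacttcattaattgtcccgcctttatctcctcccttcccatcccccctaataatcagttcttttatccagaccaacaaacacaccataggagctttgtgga
Tnfrsf19: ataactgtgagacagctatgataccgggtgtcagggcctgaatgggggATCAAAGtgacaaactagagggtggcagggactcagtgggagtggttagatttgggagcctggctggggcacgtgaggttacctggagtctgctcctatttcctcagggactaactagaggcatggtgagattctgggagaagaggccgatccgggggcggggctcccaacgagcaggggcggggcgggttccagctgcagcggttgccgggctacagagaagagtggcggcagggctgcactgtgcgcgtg
A match describes the letters only, and no binding was measured in these libraries.

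The pericentral genes did not move as one. Of 18 tested, 10 were called higher and 1 lower, at a median log2 fold change of 1.21. Oat, the ornithine aminotransferase of pericentral hepatocytes, was at 18.2 and 20.2 CPM in R&Zflox and 145 and 108 CPM in R&Zdel livers (log2 fold change 2.72, SE 0.24, adjusted p = 0.000801). The glutamate transporter Slc1a2 was at 3.92 and 4.08 against 20.4 and 15.6 CPM (log2 fold change 2.17, SE 0.33, adjusted p = 0.00445), and the hepatokine Lect2 at 142 and 124 against 377 and 307 CPM (log2 fold change 1.36, SE 0.21, adjusted p = 0.0049). Slc1a4, a neutral amino acid transporter, rose from 16.9 and 18.8 to 53.4 and 53.8 CPM (log2 fold change 1.59, SE 0.19, adjusted p = 0.00181). These 4 genes were higher in both mutant libraries and were called in all 4 fits with a library left out. The windows of Slc1a2 and Lect2 held CTTTGAT, as did that of Cyp2c29, which was called lower, and these were the 3 matches in 14 pericentral windows. Glul, the glutamine synthetase that marks the cells next to the central vein, was at 57.2 and 21.3 CPM in R&Zflox and 49.1 and 39.1 CPM in R&Zdel livers and was not called (log2 fold change 0.17, SE 0.48, adjusted p = 0.833). Cyp2e1 lay at 2455 and 1918 against 2581 and 1582 CPM (log2 fold change −0.071, SE 0.31, adjusted p = 0.892), and the genotypes overlapped for both. Cyp2c29, another cytochrome of this list, was lower, at 647 and 691 against 96 and 135 CPM (log2 fold change −2.53, SE 0.54, adjusted p = 0.0151). The list had 5 higher calls without R&Zflox replicate 1 and 6 without each other of the 4 libraries.

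The level of these genes in the controls themselves differed from that of undamaged livers. In 3 undamaged R&Zflox livers of the same batch (3 and 7 months, a description with no test), Oat was at 267 to 485 CPM, Slc1a2 at 69 to 99.9, Glul at 113 to 141 and Cyp2e1 at 9083 to 11220 CPM. The summed CPM of the pericentral list was 6417 and 5287 in R&Zflox and 6624 and 4884 in R&Zdel livers at 4 days, against 13942 to 18011 without damage. So all 4 livers at 4 days, the controls included, lay below the undamaged ones for this sum.

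Periportal genes were lower. Of 18 tested, 12 were called lower (4.95% of all genes tested were) and 0 higher, at a median log2 fold change of −1.63. Cyp2f2, a cytochrome of periportal hepatocytes, was the most decreased of all genes tested, at 3208 and 2580.4 CPM in R&Zflox and 13 and 24.6 CPM in R&Zdel livers, 154-fold lower (log2 fold change −7.27, SE 0.91, adjusted p = 0.00226). The serine dehydratase Sds was at 316 and 299.8 against 10.4 and 18.4 CPM (log2 fold change −4.42, SE 0.55, adjusted p = 0.00226). Hal, the histidine ammonia-lyase, fell from 554 and 492 to 41.4 and 31.3 CPM (log2 fold change −3.85, SE 0.46, adjusted p = 0.00187). For these 3 genes both mutant libraries were below both controls. The glutaminase Gls2 was at 395 and 388 against 50.6 and 56.1 CPM (log2 fold change −2.88, SE 0.34, adjusted p = 0.00187), and G6pc, the glucose-6-phosphatase of gluconeogenesis, at 394 and 322 against 40.3 and 33.5 CPM (log2 fold change −3.28, SE 0.51, adjusted p = 0.00501). Of the urea cycle, Arg1 was called, at 1516 and 1462 against 673 and 549.6 CPM (log2 fold change −1.28, SE 0.25, adjusted p = 0.0109), whereas Ass1, Asl and Cps1 had log2 fold changes of −0.79, −0.52 and −0.43 and were not. Apoa4, Pigr, Pck1, Ctsc, Hsd17b13 and Hsd17b6 were also called lower (log2 fold changes −2.19 to −1.51). Of these, Hsd17b6 was lost without any 1 of the 4 libraries (−2.32 to −2.07 over the 4 fits), Hsd17b13 lost without R&Zflox replicate 2, R&Zdel replicate 1 or R&Zdel replicate 2 (−1.72 to −1.27 over the 4 fits), Pck1 lost without R&Zflox replicate 1 or R&Zdel replicate 2 (−2.24 to −1.2 over the 4 fits) and Ctsc lost without R&Zflox replicate 2 or R&Zdel replicate 1 (−2.67 to −1.04 over the 4 fits). In each of those fits 9 or 10 periportal genes were called lower. The list summed to 20334 and 17969.9 CPM in R&Zflox livers, within the 16083 to 20904 CPM of undamaged ones, and to 7323 and 5889.9 CPM in R&Zdel livers.

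**Figure D2:**
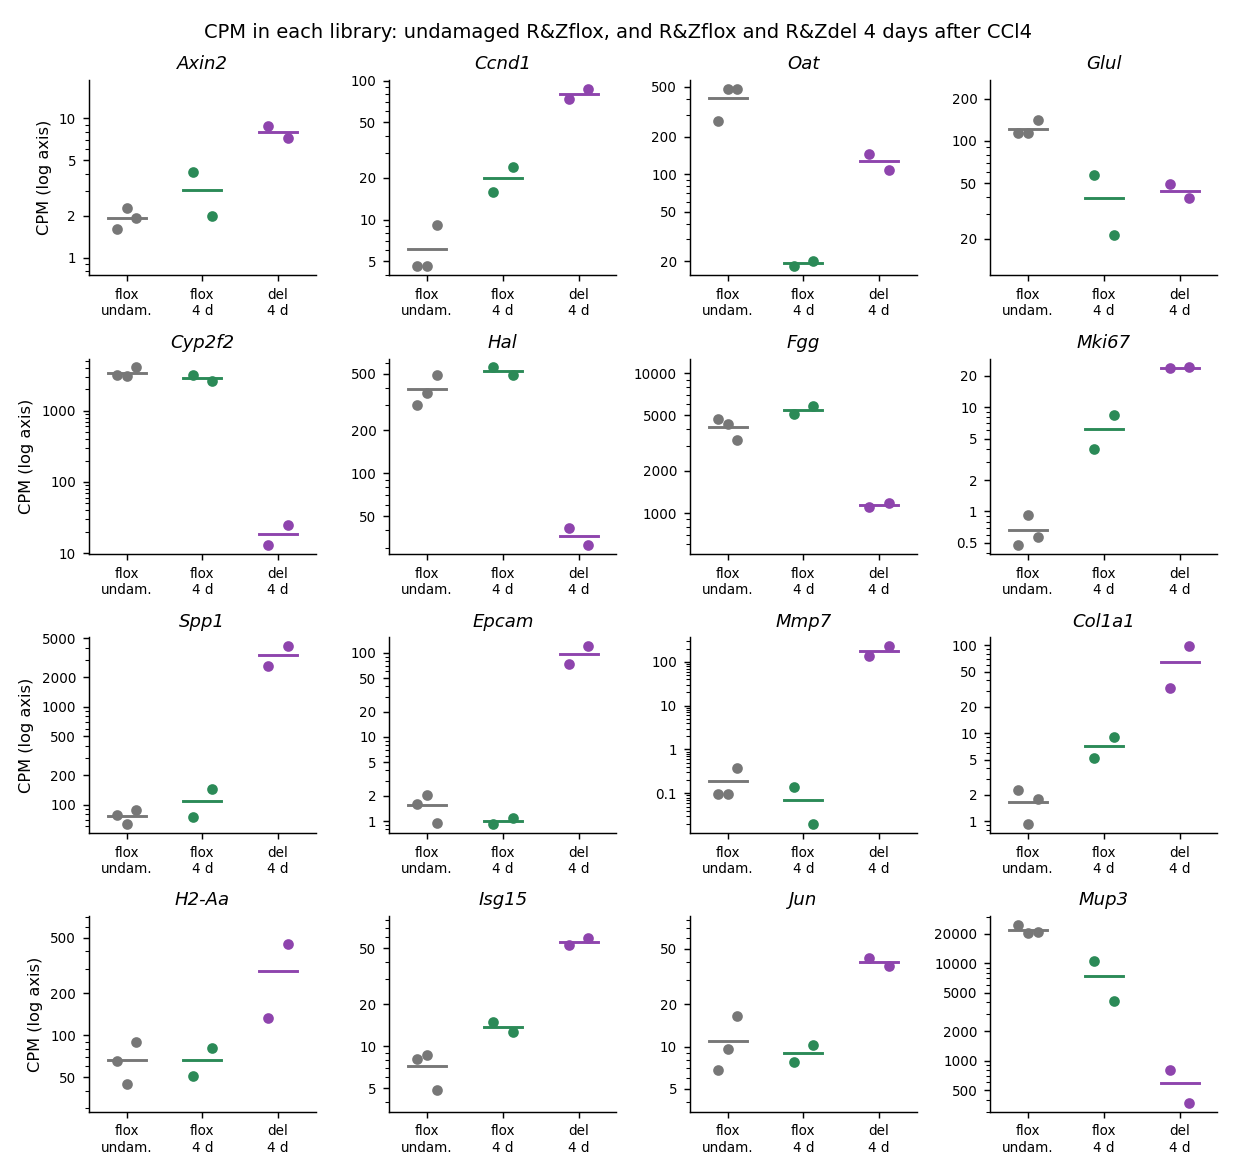
CPM of 16 genes on logarithmic axes that differ between panels. Each point is a library and each line a group mean, for 3 undamaged R&Zflox livers (grey), 2 R&Zflox livers 4 days after CCl4 (green) and 2 R&Zdel livers 4 days after CCl4 (purple), and the R&Zflox library with 0 Mmp7 reads is drawn at 0.02. Oat and Glul are below the undamaged level in both genotypes, whereas Hal and Fgg are below it in R&Zdel livers and not in R&Zflox livers.

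Plasma proteins made by hepatocytes fell in part. Of 24 complement and coagulation genes tested, 12 were called lower and 0 higher (median log2 fold change −1.03). All fibrinogen chains were among them. Fga was at 8056 and 9633 CPM in R&Zflox and 2057 and 2209 CPM in R&Zdel livers (log2 fold change −2.05, SE 0.30, adjusted p = 0.00404), Fgb at 5383 and 6359.5 against 1834 and 1592 CPM (log2 fold change −1.78, SE 0.30, adjusted p = 0.00683), and Fgg at 5126 and 5865 against 1105 and 1178 CPM (log2 fold change −2.27, SE 0.25, adjusted p = 0.00136). The terminal complement component C9 was at 555 and 543 against 174 and 162 CPM (log2 fold change −1.71, SE 0.25, adjusted p = 0.00442), C8a at 419 and 498 against 218 and 177 CPM (log2 fold change −1.21) and C8b at 377 and 361 against 151 and 123 CPM (log2 fold change −1.43). Coagulation factors F12 and F7 had log2 fold changes of −1.3 and −1.22, and F9, at 108 and 112 against 68.7 and 55.7 CPM, of −0.82, short of the fold required. C3, the central complement component, was at 3701 and 4929 against 4665 and 4153 CPM and was not called. C8b was lost without R&Zdel replicate 2 (−1.58 to −1.29 over the 4 fits), and so was F7 (−1.31 to −1.12). Without R&Zdel replicate 2, 7 of the list were called lower, against 10 to 14 without each other library.

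Acute-phase genes, which hepatocytes induce in inflammation, went both ways and differed between the controls. Of 16 tested, 3 were called lower and 1 higher (18.75% and 6.25%, against 4.95% and 10.3% of all genes tested). Crp was at 573 and 471 CPM in R&Zflox and 182 and 202 CPM in R&Zdel livers (log2 fold change −1.44, SE 0.20, adjusted p = 0.00332) and was called in all 4 fits with a library left out. Lbp (log2 fold change −1.53) was lost without R&Zflox replicate 2 or R&Zdel replicate 1 (−2.12 to −1.01 over the 4 fits), and Itih4 (−1.53) was lost without any 1 of the 4 libraries (−1.67 to −1.38 over the 4 fits). Orm3 rose from 2.89 and 0.95 to 20.5 and 16.5 CPM (log2 fold change 3.27, SE 0.70, adjusted p = 0.0156). Saa1 was at 263 and 1163 CPM in R&Zflox against 363 and 343 CPM in R&Zdel livers, so that R&Zflox replicate 2 stood above the other 3 libraries. Lcn2, at 28.7 and 91.3 against 394 and 521 CPM, did not overlap between genotypes but was not called (log2 fold change 2.93, SE 1.53, adjusted p = 0.203).

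Among 20 hepatocyte transcription factors and secreted products, 2 were called higher and 2 lower, against 10.3% and 4.95% of all genes tested. The share called higher was near that of all genes. The transcription factor Hnf4a (146 and 140.1 against 120.2 and 103 CPM) did not pass (log2 fold change −0.35). Alb was at 36941 and 42024 CPM in R&Zflox and 30129 and 22697 CPM in R&Zdel livers (log2 fold change −0.58, SE 0.41, adjusted p = 0.339) and was not called either, nor were Ttr, Apoa1 and Tat (log2 fold changes −0.75, −0.78 and −0.77). Tdo2, the tryptophan dioxygenase, was called lower, at 1023 and 838 against 276 and 173 CPM (log2 fold change −2.05, SE 0.34, adjusted p = 0.00627), and Nr1i3, the xenobiotic receptor CAR, higher, at 25.8 and 18.7 against 91.2 and 49 CPM (log2 fold change 1.66, SE 0.31, adjusted p = 0.00966). Cebpa, with a log2 fold change of −1.01, was lost without R&Zflox replicate 1 or R&Zdel replicate 2 (−1.18 to −0.85 over the 4 fits), and Foxa1, with 1.25, was lost without R&Zflox replicate 1, R&Zflox replicate 2 or R&Zdel replicate 1 (0.95 to 1.5 over the 4 fits).

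Metabolic enzymes followed. Among 25 cytochromes P450 tested, 10 were called lower and 4 higher. Cyp3a13 was at 207 and 217 CPM in R&Zflox and 39.5 and 50.4 CPM in R&Zdel livers (log2 fold change −2.24, SE 0.34, adjusted p = 0.00467), while Cyp2c38 rose from 3.6 and 5.28 to 39.5 and 27.1 CPM (log2 fold change 2.9, SE 0.31, adjusted p = 0.00114). Cytochromes of one subfamily are similar in sequence, and reads shared between them may have been split or dropped. Of 18 bile acid genes, 7 were called lower and 1 higher. Cyp8b1, which makes cholic acid, was at 752 and 366 against 84.1 and 49.4 CPM (log2 fold change −3.07, SE 0.47, adjusted p = 0.00467), and the uptake transporter Slc10a1 at 489 and 361 against 136 and 83 CPM (log2 fold change −1.96, SE 0.28, adjusted p = 0.00355). The conjugating enzymes Slc27a5 and Baat had log2 fold changes of −2.01 and −1.2. The gene called higher was the basolateral export pump Abcc4, at 1.25 and 2.15 against 14.4 and 13.7 CPM (log2 fold change 3.05, SE 0.44, adjusted p = 0.00356). Cyp7a1, the rate-limiting enzyme of bile acid synthesis, was at 126 and 105 against 99.6 and 44.3 CPM and was not called.

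Of 20 genes of fatty acid and triglyceride synthesis, 6 were called lower and 1 higher. The acetyl-CoA carboxylase Acacb was at 82.4 and 58 CPM in R&Zflox and 20.7 and 14 CPM in R&Zdel livers (log2 fold change −2.02, SE 0.33, adjusted p = 0.00576). Of the desaturases, Fads2 was at 784 and 1006 against 394 and 284 CPM (log2 fold change −1.4, SE 0.26, adjusted p = 0.00875) and Fads1 had a log2 fold change of −1.26. These 3 were called in all 4 fits with a library left out, whereas Acly, Elovl5 and Gpam (log2 fold changes −1.65, −1.57 and −1.05) were lost without any 1 of the 4 libraries (over those fits −1.75 to −1.55, −1.66 to −1.46 and −1.24 to −0.84). The list's one higher gene, Mogat1, an acyltransferase of triglyceride synthesis, rose from 0.249 and 0.211 to 16 and 11.9 CPM (log2 fold change 5.89, SE 0.73, adjusted p = 0.00212). Fasn, the fatty acid synthase, was at 749 and 355 against 770.0 and 412 CPM, and Srebf1, a regulator of lipogenesis, at 127 and 109 against 148 and 124 CPM. Neither was called. Fatty acid oxidation had 2 lower calls of 18 tested, Acadvl and Etfdh (log2 fold changes −1.05 and −1.15), and cholesterol synthesis 3 of 18, Fdps, Hmgcs1 and Sc5d (−1.31, −1.41 and −1.32), with 0 higher in either (11.1% and 16.7% lower, against 4.95% of all genes tested). Of these, Acadvl was lost without R&Zflox replicate 1 or R&Zdel replicate 2 (−1.1 to −1.0 over the 4 fits), Hmgcs1 lost without R&Zflox replicate 1, R&Zflox replicate 2 or R&Zdel replicate 2 (−1.51 to −1.31 over the 4 fits) and Sc5d lost without any 1 of the 4 libraries (−1.42 to −1.21 over the 4 fits).

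The genes of sexual dimorphism in the liver moved although all 4 mice were listed as male. Y-linked Ddx3y was at 28.6 and 31.7 CPM in R&Zflox and 29.8 and 28.2 CPM in R&Zdel livers, and Xist, which is expressed from the inactive X of females, was at 0.117 CPM or less in each. Of 12 genes that are higher in male livers, 8 were called lower and 0 higher, at a median log2 fold change of −2.19. Cyp4a12a was at 239.7 and 178 against 9.44 and 2.66 CPM (log2 fold change −5.11, SE 0.60, adjusted p = 0.00179). The major urinary protein gene Mup3, whose reads may be shared with close copies, was at 10473 and 4139.7 against 804 and 369.8 CPM (log2 fold change −3.64, SE 0.59, adjusted p = 0.00549), and the transporter Slco1a1 at 88.3 and 51.9 against 10.6 and 3.01 CPM (log2 fold change −3.37, SE 0.55, adjusted p = 0.00581). For Hsd3b5 and Elovl3 the controls differed between themselves, at 41.6 and 4.65 and at 131 and 10.3 CPM, against 0.491 and 0.163 and 1.33 and 0.677 CPM in R&Zdel livers. Hsd3b5 was lost without R&Zflox replicate 1 or R&Zdel replicate 2 (−7.11 to −3.86 over the 4 fits), and Elovl3 lost without R&Zflox replicate 1, R&Zdel replicate 1 or R&Zdel replicate 2 (−7.04 to −3.37 over the 4 fits). Lower calls in this list numbered 5 without R&Zflox replicate 1, 10 without R&Zflox replicate 2, 7 without R&Zdel replicate 1 and 4 without R&Zdel replicate 2. In undamaged R&Zflox livers Mup3 was at 20223 to 24532 CPM and Cyp4a12a at 208 to 475 CPM. Of 12 genes higher in females, 4 were tested, and Cyp2b9 was called higher, at 0.392 and 5.28 against 92 and 48.5 CPM (log2 fold change 4.63, SE 1.07, adjusted p = 0.0206). The sulfotransferase gene Sult2a1 was too low to be tested, with 8 reads in the R&Zflox and 1467 in the R&Zdel libraries, a ratio of 134 (95% counting interval 67.6 to 310.1, which covers counting error only).

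Cholangiocyte and ductular reaction genes had the highest median log2 fold change of the 37 lists. Of 15 tested of 18, 12 were called higher and 0 lower, at a median log2 fold change of 4.24. Several members were near or below 1 CPM in R&Zflox livers. Such genes can pass the filter through the R&Zdel libraries alone, so that these counts and the median lean to higher values. Epcam, an epithelial adhesion molecule of ducts and progenitors, was at 0.926 and 1.09 CPM in R&Zflox and 72.4 and 119 CPM in R&Zdel livers, 94.4-fold higher (log2 fold change 6.56, SE 1.00, adjusted p = 0.00465). Spp1, the secreted matrix protein osteopontin, rose from 74.7 and 145 to 2597 and 4153 CPM (log2 fold change 4.94, SE 0.61, adjusted p = 0.0021) and was the second most abundant of all genes called higher, after Clu. Both R&Zdel libraries stood far above the controls and above undamaged R&Zflox livers, which had 0.947 to 2.06 CPM of Epcam and 63.6 to 88.9 CPM of Spp1. Krt23 was at 0.641 and 0.493 against 16.9 and 29.4 CPM (log2 fold change 5.34, SE 0.48, adjusted p = 0.000801), Prom1 at 0.356 and 1.37 against 23.5 and 42 CPM (log2 fold change 5.23, SE 1.03, adjusted p = 0.0118), and the transcription factor Sox4 at 1.67 and 2.18 against 19.4 and 23.3 CPM (log2 fold change 3.47, SE 0.36, adjusted p = 0.0011). The biliary keratins Krt19, at 1.75 and 2.29 against 41.5 and 53.7 CPM (log2 fold change 4.56, SE 1.64, adjusted p = 0.0835), and Krt7, at 1.53 and 1.34 against 22.9 and 31.5 CPM (log2 fold change 4.24, SE 1.03, adjusted p = 0.024), did not overlap between the genotypes, but Krt19 was lost without any 1 of the 4 libraries (4.36 to 4.77 over the 4 fits), and Krt7 lost without R&Zflox replicate 1 or R&Zflox replicate 2 (3.99 to 4.45 over the 4 fits). Sox9, at 13.5 and 12.8 against 36.8 and 67.7 CPM, was lost without R&Zflox replicate 1, R&Zflox replicate 2 or R&Zdel replicate 2 (1.49 to 2.36 over the 4 fits). Muc1 (0.855 and 1.09 against 23.5 and 36.1 CPM) did not pass the test (log2 fold change 4.93, SE 1.94, adjusted p = 0.107). Cftr, the chloride channel of ducts, was not tested, with 0 reads in the R&Zflox and 79 in the R&Zdel libraries, at least 19.2-fold higher against a floor of 3 counts over the group. With a library left out, 7 (without R&Zflox replicate 1) to 11 members (without R&Zdel replicate 1) were called higher.

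Among all genes tested, the most increased included several that are expressed by epithelia. Aqp5, a water channel of secretory epithelia, had 0 reads in both R&Zflox libraries and 6.49 and 15.6 CPM in the R&Zdel libraries, at least 217-fold higher against the floor of 3 counts, with an adjusted p of 0.0385, and it was lost without R&Zflox replicate 1, R&Zflox replicate 2 or R&Zdel replicate 2. Mmp7, the metalloproteinase matrilysin, had 4 reads in the R&Zflox libraries and 14250 in the R&Zdel libraries (132 and 226 CPM), a ratio of 2596 (95% counting interval 1014 to 9529, adjusted p = 0.0031). Nptx1, a secreted pentraxin, had 1 read against 1279, a ratio of 932 (95% counting interval 167 to 36841, adjusted p = 0.00107). The epithelial transcription factor Ehf was at 0.356 and 0.141 against 27.9 and 40.3 CPM (log2 fold change 7.08, SE 1.27, adjusted p = 0.00824), the scavenger receptor Scara3 at 0.606 and 1.13 against 92.4 and 124 CPM (log2 fold change 6.95, SE 0.73, adjusted p = 0.0011) and Anxa13 at 0.249 and 0.0352 against 10.6 and 16 CPM (log2 fold change 6.51, SE 1.37, adjusted p = 0.0149). Tspan8, a tetraspanin of epithelia, was at 1.14 and 0.88 against 44.5 and 88.2 CPM (log2 fold change 6.03, SE 1.13, adjusted p = 0.00981). In each of these the R&Zdel libraries were above both controls, but the most increased genes were chosen with no overlap as a condition. Rps3a3, which resembles a copy of a ribosomal protein gene, was at 0.178 and 0.141 CPM in R&Zflox and 37.2 and 68 CPM in R&Zdel livers, but at 61.7 to 74.6 CPM in undamaged R&Zflox livers, and its count is uncertain. It was lost without R&Zflox replicate 1, R&Zflox replicate 2 or R&Zdel replicate 2 (7.83 to 8.7 over the 4 fits). Clu, which encodes the secreted chaperone clusterin, was the most abundant gene called higher, at 3019.8 and 2945 against 5415 and 7694 CPM, and was lost without R&Zflox replicate 1, R&Zflox replicate 2 or R&Zdel replicate 2 (0.86 to 1.37 over the 4 fits). Fmo5, a monooxygenase (log2 fold change 1.1), was lost without R&Zflox replicate 1, R&Zflox replicate 2 or R&Zdel replicate 1 (0.83 to 1.33 over the 4 fits), and Gstm3, a glutathione transferase (1.58), lost without R&Zflox replicate 1, R&Zflox replicate 2 or R&Zdel replicate 2 (1.44 to 1.71 over the 4 fits).

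Among the most decreased and the most abundant decreased genes not yet named, the protease inhibitor gene Serpina3k was at 11904 and 9222 CPM in R&Zflox and 2387 and 1378 CPM in R&Zdel livers (log2 fold change −2.49, SE 0.36, adjusted p = 0.00375). Ces3b, a carboxylesterase, was at 385 and 275 against 28.2 and 10.8 CPM (log2 fold change −4.08, SE 0.53, adjusted p = 0.00257), Ugt2b38 at 9.76 and 5.25 against 0.346 and 0.14 CPM (log2 fold change −4.96, SE 0.49, adjusted p = 0.000978) and Acpp, an acid phosphatase, at 17.6 and 8.98 against 0.289 and 0.303 CPM (log2 fold change −5.46, SE 0.48, adjusted p = 0.000801). Fabp1, the liver fatty acid-binding protein, lay at 8433 and 7545 against 4666 and 2398 CPM and was lost without R&Zflox replicate 1, R&Zflox replicate 2 or R&Zdel replicate 2 (−1.74 to −0.77 over the 4 fits). Mup14, which was lost without R&Zflox replicate 1 or R&Zdel replicate 2 (−5.04 to −1.32 over the 4 fits), was at 22.7 and 1.72 against 0.981 and 0.42 CPM, so that R&Zflox replicate 2 lay near the R&Zdel libraries.

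Matrix genes were higher, and more so in one mutant liver. Of 16 collagens tested, 9 were called higher and 1 lower (median log2 fold change 1.66), and of 14 other matrix genes 9 were called higher and 0 lower (1.51). Col1a1, a chain of fibrillar collagen I, was at 5.27 and 9.12 CPM in R&Zflox and 32.5 and 97.8 CPM in R&Zdel livers (log2 fold change 3.18, SE 0.75, adjusted p = 0.022), and Col3a1 at 28.4 and 52.6 against 103 and 269.8 CPM (log2 fold change 2.2, SE 0.62, adjusted p = 0.0401). Both R&Zdel libraries were above the controls, and replicate 2 was the higher of them. Col1a1 was lost without R&Zflox replicate 1 or R&Zdel replicate 2 (2.18 to 3.76 over the 4 fits), and Col3a1 lost without R&Zflox replicate 1 or R&Zdel replicate 2 (1.35 to 2.74 over the 4 fits). Col16a1, at 1.89 and 1.76 against 9.32 and 12 CPM (log2 fold change 2.54, SE 0.29, adjusted p = 0.00163), Col5a1, at 2.35 and 3.1 against 11.2 and 17.5 CPM (log2 fold change 2.4, SE 0.37, adjusted p = 0.00491), and Eln, which encodes elastin, at 2.03 and 1.97 against 12.6 and 40.4 CPM (log2 fold change 3.73, SE 0.68, adjusted p = 0.00875), were called in all 4 fits with a library left out. Collagen calls numbered 2 without R&Zflox replicate 1, 7 without R&Zflox replicate 2, 9 without R&Zdel replicate 1 and 2 without R&Zdel replicate 2. For the other matrix genes these counts were 2, 4, 11 and 2. Summed over the list, collagens came to 675 and 631 CPM in R&Zflox and 659 and 1153 CPM in R&Zdel livers, a sum in which Col18a1, at 509.6 and 423 against 316 and 263 CPM, holds the largest part. Col18a1 and Fn1, both also made by hepatocytes, had log2 fold changes of −0.69 and −0.023 and were not called.

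Of 12 metalloproteinases and inhibitors tested, 6 were called higher and 0 lower, Mmp7 among them. Timp2, an inhibitor, was at 9.87 and 12.4 CPM in R&Zflox and 28.7 and 66.6 CPM in R&Zdel livers (log2 fold change 2.1, SE 0.37, adjusted p = 0.00783). Mmp23, at 2.78 and 3.38 against 5.92 and 10.9 CPM, was lost without R&Zflox replicate 1, R&Zflox replicate 2 or R&Zdel replicate 2 (0.94 to 1.82 over the 4 fits). Mmp2, the gelatinase, was at 3.88 and 5.35 against 2.57 and 17.1 CPM and was not called (log2 fold change 1.09, SE 0.73, adjusted p = 0.314). Its log2 fold change was −0.84 without R&Zdel replicate 2. Mmp11, at 0.534 and 0.106 against 1.15 and 3.85 CPM, was below the filter. The markers of stellate cells and myofibroblasts, which make this matrix, gave 4 higher calls and 0 lower of 14 tested, with 0 without R&Zflox replicate 1, 2 without R&Zflox replicate 2, 8 without R&Zdel replicate 1 and 0 without R&Zdel replicate 2. The pericyte gene Rgs5 was at 18.3 and 24.7 against 41 and 70.1 CPM (log2 fold change 1.37) and Cygb at 8.16 and 8.55 against 15.7 and 35.5 CPM (1.62), the first lost without R&Zflox replicate 1 or R&Zdel replicate 2 (0.93 to 1.7 over the 4 fits) and the second lost without R&Zflox replicate 1 or R&Zdel replicate 2 (0.91 to 2.09 over the 4 fits). Among the defining markers, Acta2 was at 2.28 and 5.6 against 5.25 and 17.9 CPM, Des at 2.28 and 4.19 against 3.32 and 9.12, Pdgfrb at 5.06 and 6.13 against 5.83 and 19.5 and Lrat at 10.7 and 8.62 against 1.96 and 6.74 CPM, and none of these 4 was called. The list summed to 123 and 168 CPM in R&Zflox and 183 and 402 CPM in R&Zdel livers. The share of these cells in the matrix differences was not tested.

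Markers of Kupffer cells and other macrophages were called in both directions. Of 19 tested, 2 were called higher and 2 lower, against 10.3% and 4.95% of all genes tested. The share called higher was thus near that of all genes. The list summed to 1307 and 2865 CPM in R&Zflox and 1047 and 2022 CPM in R&Zdel livers. The Kupffer cell lectin Clec4f was at 217 and 222 against 125 and 144 CPM, Adgre1 at 14 and 37.2 against 8.02 and 19.7, Cd68 at 21.2 and 39.6 against 27 and 42.9 and C1qa at 78.6 and 148 against 78.2 and 156 CPM, with no call among them. Marco, a scavenger receptor, stood out in R&Zflox replicate 2, at 33.8 and 314 CPM against 13.6 and 37.9 CPM in R&Zdel livers, and was lost without R&Zflox replicate 2, R&Zdel replicate 1 or R&Zdel replicate 2 (−3.67 to −0.39 over the 4 fits). The chemokine receptor genes Cx3cr1 (0.713 and 1.94 against 6.29 and 14.6 CPM, log2 fold change 2.97, SE 0.56, adjusted p = 0.00996) and Ccr2 (1.18 and 2.68 against 4.88 and 9.52 CPM, log2 fold change 1.9), both of monocyte-derived cells, were called higher, the second lost without R&Zflox replicate 1 or R&Zdel replicate 2 (1.34 to 2.61 over the 4 fits). Of 11 lymphocyte and neutrophil genes tested, Lck alone was called, and the share called higher was again near that of all genes. Lck was at 1.03 and 2.01 against 4.59 and 7.28 CPM and was lost without R&Zflox replicate 1 or R&Zdel replicate 2 (1.56 to 2.52 over the 4 fits).

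Genes of MHC class II presentation were called higher in 7 of 8 cases, at a median log2 fold change of 2.02. H2-Aa was at 51.5 and 81.8 CPM in R&Zflox and 132 and 448 CPM in R&Zdel livers (log2 fold change 2.12, SE 0.49, adjusted p = 0.0206), and Cd74, the invariant chain, at 179 and 294 against 365 and 1457 CPM (log2 fold change 1.95, SE 0.54, adjusted p = 0.0371). Ciita, the transactivator of these genes, was at 1.07 and 2.25 against 5.92 and 12 CPM (log2 fold change 2.43, SE 0.51, adjusted p = 0.0151). R&Zdel replicate 2 held most of the difference, and the list summed to 419 and 715 CPM in R&Zflox and 983 and 3317 CPM in R&Zdel livers. Without R&Zdel replicate 2, 1 of the 8 genes was called and Cd74 fell to a log2 fold change of 0.63, without R&Zflox replicate 1 0 were, without R&Zflox replicate 2 7 and without R&Zdel replicate 1 8. Of 18 endothelial genes, 2 were called higher and 3 lower, against 10.3% and 4.95% of all genes tested. The share called higher was near that of all genes. Lyve1, a marker of sinusoidal endothelium, was at 8.19 and 14.9 against 1.93 and 3.78 CPM (log2 fold change −2.01, SE 0.56, adjusted p = 0.037) and Clec4g at 131 and 120.0 against 25.5 and 60.9 CPM (log2 fold change −1.54, SE 0.37, adjusted p = 0.0226), whereas Vwf, of larger vessels, was at 1.14 and 1.44 against 4.65 and 7.96 CPM (log2 fold change 2.28, SE 0.51, adjusted p = 0.019). Lyve1 was lost without R&Zflox replicate 2 or R&Zdel replicate 1 (−2.57 to −1.51 over the 4 fits), Clec4g lost without R&Zflox replicate 1 (−2.3 to −1.05 over the 4 fits) and Vwf lost without R&Zflox replicate 1 or R&Zdel replicate 2 (1.85 to 2.62 over the 4 fits). The ligand gene Wnt2, of central vein and sinusoidal endothelium, lay at 8.69 and 3.91 against 0.866 and 2.94 CPM and was not called (log2 fold change −1.71, SE 0.71, adjusted p = 0.122).

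**Figure D3:**
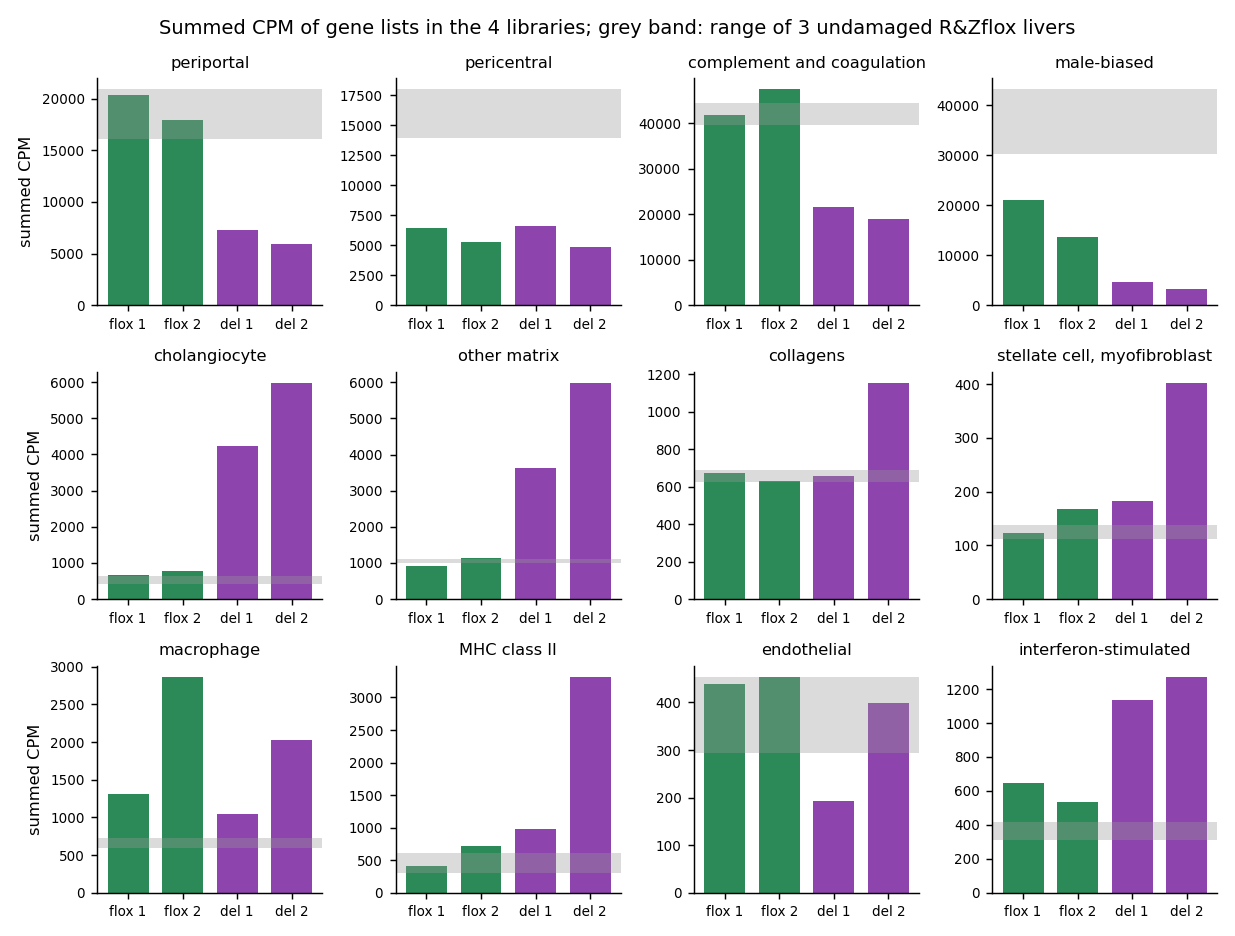
Summed CPM of 12 gene lists in the 4 libraries, as bars from 0 on axes that differ between panels, with R&Zflox in green and R&Zdel in purple. The grey band is the range of 3 undamaged R&Zflox livers. Spp1 is a member of both the cholangiocyte and the other matrix list, and the MHC class II, stellate cell and collagen sums are highest in R&Zdel replicate 2, whereas the macrophage sum is highest in R&Zflox replicate 2.

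Interferon-stimulated genes were higher in R&Zdel livers. Of 17 tested, 14 were called higher and 0 lower, at a median log2 fold change of 2.03. Isg15, a ubiquitin-like modifier, was at 14.9 and 12.6 CPM in R&Zflox and 52.7 and 59 CPM in R&Zdel livers (log2 fold change 2.03, SE 0.20, adjusted p = 0.000978). Ifit1, a sensor of foreign RNA, was at 7.38 and 4.33 against 34.4 and 39.9 CPM (log2 fold change 2.67, SE 0.26, adjusted p = 0.000978), its relative Ifit3 at 7.3 and 4.96 against 25.9 and 30.8 CPM (log2 fold change 2.21, SE 0.26, adjusted p = 0.00179), and the chemokine gene Cxcl10 at 3.95 and 5.39 against 22.4 and 28.6 CPM (log2 fold change 2.45, SE 0.29, adjusted p = 0.00181). In all 4 genes the R&Zdel libraries were above the controls with little spread. The deconjugase Usp18, the antiviral gene Oasl2 and the transcription factor Irf7 had log2 fold changes of 2.03, 3.06 and 1.99. Bst2, Gbp2 and Irf1 were the 3 not called (log2 fold changes 0.37, 1.18 and 0.69). From 12 to 14 members were called with a library left out.

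In the same promoter windows, the core of the interferon-stimulated response element, GAAA followed by any 2 bases and GAAA on either strand, occurs for 3.99% of 27025 genes. Of the interferon list, 14 members had a window and 9 held a match, among them 7 of the 11 that were called higher. The 4 genes above are shown (RefSeq, GRCm38.p6, 5′ to 3′ on the gene's strand), with the bases of the matches in capitals. The windows lie at chr4:156200769-156201068 for Isg15 (minus strand), chr19:34640639-34640938 for Ifit1 (plus strand), chr19:34583279-34583578 for Ifit3 (plus strand) and chr5:92348840-92349139 for Cxcl10 (minus strand).
Isg15: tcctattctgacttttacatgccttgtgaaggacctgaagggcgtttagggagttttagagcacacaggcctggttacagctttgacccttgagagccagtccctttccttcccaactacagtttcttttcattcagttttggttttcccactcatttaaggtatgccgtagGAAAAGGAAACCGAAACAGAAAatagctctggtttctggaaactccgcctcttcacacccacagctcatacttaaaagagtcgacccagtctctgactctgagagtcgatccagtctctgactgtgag
Ifit1: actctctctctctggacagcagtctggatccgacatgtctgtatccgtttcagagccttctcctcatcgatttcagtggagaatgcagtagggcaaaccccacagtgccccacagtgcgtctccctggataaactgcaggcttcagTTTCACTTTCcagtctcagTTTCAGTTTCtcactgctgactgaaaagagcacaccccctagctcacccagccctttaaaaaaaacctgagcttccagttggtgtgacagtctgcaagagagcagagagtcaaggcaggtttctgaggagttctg
Ifit3: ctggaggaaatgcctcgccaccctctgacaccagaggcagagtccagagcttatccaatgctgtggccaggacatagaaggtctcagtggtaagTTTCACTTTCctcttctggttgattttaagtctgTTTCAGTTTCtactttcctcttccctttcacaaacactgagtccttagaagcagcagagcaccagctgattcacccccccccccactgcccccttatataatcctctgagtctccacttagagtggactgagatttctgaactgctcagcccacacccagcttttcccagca
Cxcl10: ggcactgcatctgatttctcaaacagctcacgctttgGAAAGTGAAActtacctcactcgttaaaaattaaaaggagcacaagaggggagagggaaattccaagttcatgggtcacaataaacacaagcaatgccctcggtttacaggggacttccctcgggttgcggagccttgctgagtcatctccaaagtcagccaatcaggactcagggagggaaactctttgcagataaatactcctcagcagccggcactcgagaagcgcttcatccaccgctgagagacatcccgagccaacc
Isg15 held 3 overlapping matches, from −78, −72 and −66 relative to the start site. Ifit1 and Ifit3 held 2 each, from −104 and −85 and from −156 and −122, and Cxcl10 held 1, from −213. As above, a match describes the letters and no binding was measured.

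Some cell cycle genes were called higher in R&Zdel livers. Of 22 tested genes of the G1/S transition and DNA replication, 12 were called higher and 1 lower (median log2 fold change 1.22), and of 15 tested of 28 genes of G2/M and mitosis 4 were called higher and 0 lower (1.04). The replication ligase Lig1 was at 4.42 and 5.35 CPM in R&Zflox and 25.9 and 15.4 CPM in R&Zdel livers (log2 fold change 2.08, SE 0.33, adjusted p = 0.00505), the ribonucleotide reductase subunit Rrm2 at 7.2 and 7.57 against 43.6 and 22.5 CPM (log2 fold change 2.16, SE 0.36, adjusted p = 0.00632) and the kinase Cdk1 at 9.19 and 18 against 41 and 41.7 CPM (log2 fold change 1.61, SE 0.28, adjusted p = 0.00717). Mki67, which encodes the proliferation antigen Ki67, lay at 3.95 and 8.34 against 23.8 and 24 CPM (log2 fold change 1.96, SE 0.59, adjusted p = 0.0493), and Top2a, a topoisomerase of mitosis, at 1.6 and 4.54 against 21 and 18.4 CPM (log2 fold change 2.68, SE 0.65, adjusted p = 0.0242). R&Zflox replicate 2 was above R&Zflox replicate 1 in all of these. Mki67 was lost without R&Zflox replicate 1, R&Zdel replicate 1 or R&Zdel replicate 2 (1.52 to 2.59 over the 4 fits), and Top2a lost without R&Zflox replicate 1 (2.12 to 3.62 over the 4 fits). For the G1/S list 3 genes were called higher without R&Zflox replicate 1, and 7 to 13 without each other library. For the G2/M list the counts ran from 1 to 7. Cdc20 had the lowest log2 fold change of that list, −0.059, and was not called. In undamaged R&Zflox livers Mki67 was at 0.475 to 0.934 CPM and the G2/M list summed to 11.3 to 13.1 CPM, against 130 and 261 CPM in R&Zflox and 361 and 407 CPM in R&Zdel livers at 4 days. Mcm10 of the replication initiation machinery was the one G1/S gene called lower, at 46.4 and 37.9 against 8.63 and 4.78 CPM (log2 fold change −2.65, SE 0.43, adjusted p = 0.00554).

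Targets of p53 and cell cycle inhibitors rose alongside. Of 15 tested, 12 were called higher and 0 lower (median log2 fold change 1.11). Phlda3, an inhibitor of AKT, was at 8.62 and 6.34 against 47.6 and 40.4 CPM (log2 fold change 2.56, SE 0.22, adjusted p = 0.000801), Ccng1, which encodes cyclin G1, at 34.8 and 31.6 against 72.3 and 67.5 CPM (log2 fold change 1.07, SE 0.18, adjusted p = 0.00627), and the apoptosis gene Bax at 47.1 and 42.4 against 107 and 85.4 CPM (log2 fold change 1.1, SE 0.18, adjusted p = 0.00613). Cdkn1a, which encodes the cell cycle inhibitor p21, was at 30.2 and 33.1 against 169 and 126 CPM (log2 fold change 2.22, SE 0.71, adjusted p = 0.0594), without overlap, but was lost without any 1 of the 4 libraries (1.99 to 2.42 over the 4 fits). Gdf15, at 8.37 and 7.15 against 53.9 and 46 CPM, was lost without any 1 of the 4 libraries (2.57 to 2.8 over the 4 fits), and Trp53inp1 lost without any 1 of the 4 libraries (0.82 to 1.36 over the 4 fits). Bax was lost without R&Zdel replicate 1 (0.93 to 1.26 over the 4 fits). With a library left out, 6 to 8 members were called. Cell death genes gave 3 higher calls and 0 lower of 18 tested (16.7% higher, against 10.3% of all genes tested). Bcl2, an inhibitor of apoptosis, was at 1.07 and 1.2 against 5.95 and 7.47 CPM (log2 fold change 2.56, SE 0.46, adjusted p = 0.00831). Casp12 was at 0.962 and 2.04 against 6.84 and 11.7 CPM (log2 fold change 2.63, SE 0.60, adjusted p = 0.0203) and the inflammasome adaptor Pycard at 3.99 and 6.76 against 12.6 and 17.2 CPM (log2 fold change 1.47, SE 0.45, adjusted p = 0.0509). Casp12 was lost without R&Zflox replicate 1 or R&Zdel replicate 2 (2.18 to 3.27 over the 4 fits) and Pycard lost without R&Zflox replicate 1 or R&Zdel replicate 2 (1.14 to 1.9 over the 4 fits).

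Stress genes were higher for some families. Of 12 immediate early and heat shock genes tested, 7 were called higher and 0 lower (median log2 fold change 1.68). Jun was at 7.7 and 10.3 CPM in R&Zflox and 43.3 and 37.9 CPM in R&Zdel livers (log2 fold change 2.17, SE 0.20, adjusted p = 0.00084), Atf3 at 1.57 and 2.53 against 12.3 and 15.8 CPM (log2 fold change 2.78, SE 0.33, adjusted p = 0.0019) and the heat shock gene Hsph1 at 11.1 and 7.74 against 28.5 and 42 CPM (log2 fold change 1.91, SE 0.35, adjusted p = 0.00927). Junb, Ier2, Dusp1 and Zfp36 did not pass, with log2 fold changes from −0.71 to 0.11. Of 16 genes of the unfolded protein and integrated stress response, 4 were called higher and 1 lower (25% and 6.25%, against 10.3% and 4.95% of all genes tested). Ddit3, which encodes CHOP, was at 6.73 and 4.12 against 23.1 and 36.9 CPM (log2 fold change 2.47, SE 0.29, adjusted p = 0.00187), whereas the chaperone Hspa5 was at 322 and 419.8 against 351 and 669.7 CPM and was not called. Of 17 NRF2 targets and metallothioneins, 3 were called higher and 0 lower (17.6% higher, against 10.3% of all genes tested), at a median log2 fold change of −0.021. Nqo1 was at 4.38 and 4.93 against 30 and 24.1 CPM (log2 fold change 2.54, SE 0.21, adjusted p = 0.000801) and Gstm2 at 95.7 and 88.1 against 287 and 255 CPM (log2 fold change 1.56, SE 0.21, adjusted p = 0.00297), while Txnrd1, Gclm and Hmox1 had log2 fold changes of −0.021, −0.15 and −0.49.

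Some growth factor receptors of hepatocytes were lower. Of 14 genes tested of the growth factor and MAPK list, 3 were called lower and 1 higher (21.4% and 7.14%, against 4.95% and 10.3% of all genes tested). The epidermal growth factor receptor gene Egfr was at 214 and 178 CPM in R&Zflox and 64.7 and 29.5 CPM in R&Zdel livers (log2 fold change −2.06, SE 0.39, adjusted p = 0.0104) and Erbb3 at 69.7 and 45.1 against 19.2 and 15.6 CPM (log2 fold change −1.72, SE 0.30, adjusted p = 0.00783), whereas Met, the receptor of hepatocyte growth factor, was at 31.1 and 27.9 against 29.9 and 24.3 CPM and was not called. Igfbp1 (log2 fold change −2.28) was lost without any 1 of the 4 libraries (−2.45 to −2.1 over the 4 fits), and Hbegf (1.4) lost without R&Zflox replicate 1, R&Zflox replicate 2 or R&Zdel replicate 2 (0.97 to 1.73 over the 4 fits). Among 13 chemokines and cytokines tested, 5 were called higher and 0 lower. Tgfb3 was at 1.28 and 0.704 against 8.95 and 18.1 CPM (log2 fold change 3.76, SE 0.46, adjusted p = 0.00197), whereas Tgfb1 was at 3.71 and 5.6 against 1.73 and 4.22 CPM and was not called. Of 8 Notch and YAP pathway genes tested, 4 were called higher and 0 lower. The Notch ligand Jag1 was at 1.46 and 1.58 against 6.55 and 8.91 CPM (log2 fold change 2.34, SE 0.44, adjusted p = 0.00966). Ankrd1, a YAP target, was below the filter, with 9 reads in the R&Zflox and 1245 in the R&Zdel libraries, a ratio of 101 (95% counting interval 52.9 to 221).

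Oncofetal and imprinted genes were called higher in 4 of 8 cases tested. Afp, which encodes the fetal plasma protein α-fetoprotein, was at 2.49 and 1.8 CPM in R&Zflox and 18.8 and 25.5 CPM in R&Zdel livers (log2 fold change 3.37, SE 0.63, adjusted p = 0.00979). The imprinted long non-coding RNAs Meg3 and Rian, neighbours in one cluster, were at 0.392 and 0.106 against 62.6 and 42.4 CPM (log2 fold change 7.7, SE 0.68, adjusted p = 0.000801) and at 0.0713 and 0 against 7.99 and 9.12 CPM, the latter with 2 reads in the R&Zflox and 668 in the R&Zdel libraries, a ratio of 243 (95% counting interval 67.1 to 2014). Dlk1 of the same cluster was not tested, with 7 reads against 1053, a ratio of 109.6 (95% counting interval 53 to 273). H19, also imprinted and not tested, was at 0.428 and 0.634 against 16.1 and 18.4 CPM. Ly6d, an antigen of the Ly6 family, was at 19.5 and 11.7 against 215 and 368 CPM (log2 fold change 4.22, SE 0.95, adjusted p = 0.0188) and was lost without R&Zflox replicate 1 or R&Zflox replicate 2 (3.78 to 4.64 over the 4 fits). Without damage, R&Zflox livers had 1.56 to 2.36 CPM of it.

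Of the other tissue checks, Alas2, the erythroid enzyme of haem synthesis, was called lower, at 140.2 and 109 against 14.7 and 15.9 CPM (log2 fold change −3.02, SE 0.30, adjusted p = 0.000978), while the globin genes Hbb-bs (352 and 332 against 399 and 512 CPM), Hbb-bt, Hba-a1 and Hba-a2 were not. Pancreatic Prss1, Prss2 and Amy2a5 had 0 reads in all 4 libraries, which allows at most 3 counts per library.

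**Figure D4:**
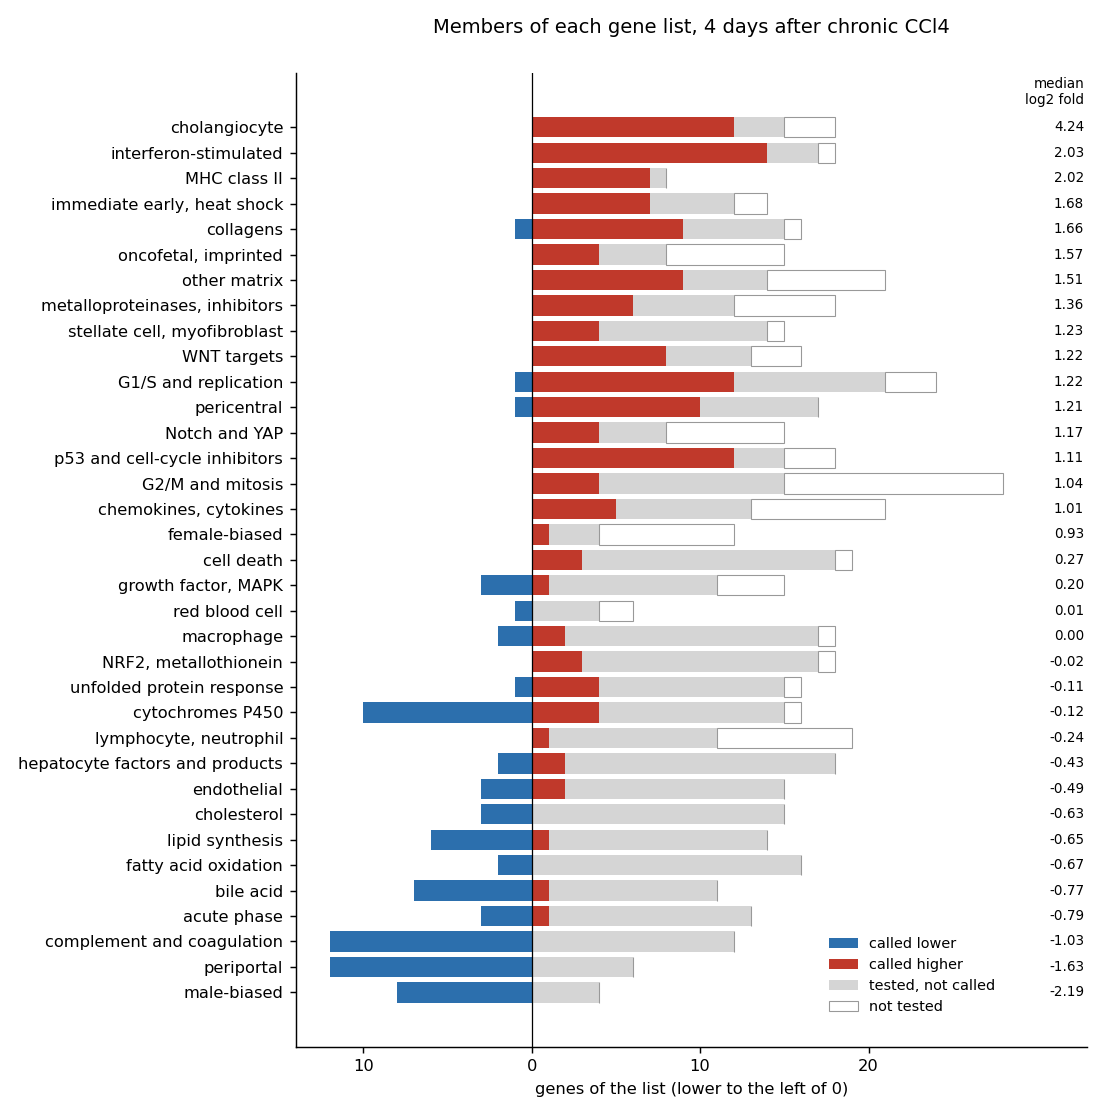
Number of genes of 35 lists called lower (blue, left of 0), called higher (red), tested but not called (grey) or not tested (white) 4 days after CCl4, with the median log2 fold change of the tested members at the right. The lists are ordered by this median, from 4.24 for the cholangiocyte list to −2.19 for male-biased genes.

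The last comparisons asked how far the genotype effect at 4 days after CCl4 differed from that without damage and at later times. Without damage at 1 month after deletion, 354 genes were called (3.12% of those tested). This comparison had 4 R&Zdel and 4 R&Zflox livers of another batch, both sexes, where a viral Cre was used. The 354 hold genes called in either direction, and 50 of them were called higher both there and at 4 days, where 10.3% of all genes tested were called higher. The share of the genes called higher at 1 month was not worked out, so 50 is a count only. At 50 days after CCl4 (2 R&Zdel livers, 1 R&Zflox liver) 634 genes were called (5.58%), and at 170 days (2 and 2 livers) 71 (0.625%). The control group of 50 days is 1 library, so that each p-value that uses it assumes that it varies like the other groups. It could not be left out. The genotype effect itself differed from that at 1 month for 312 genes (2.75%, 0.801% with a difference above 0 and 1.95% below 0, as the effect at 4 days minus the other), from that at 50 days for 170 (1.5%) and from that at 170 days for 870 (7.66%), at an adjusted p under 0.1 in edgeR's quasi-likelihood test of the interaction. These counts depended on single libraries. They were 51 (without R&Zdel replicate 2), 74 (without R&Zflox replicate 1), 128 (without R&Zflox replicate 2) and 131 (without R&Zdel replicate 1) against 1 month, 13, 12, 16 and 95 against 50 days, and 196, 98, 275 and 443 against 170 days. Of the later libraries, leaving out R&Zdel replicate 1 or 2 of 50 days gave 37 or 619, and leaving out R&Zdel replicate 1 or 2 or R&Zflox replicate 1 or 2 of 170 days gave 272, 76, 342 or 1973. Damage, batch, deletion route and time since deletion cannot be told apart in the first of these comparisons. Sex differs there too, as the CCl4 livers were all listed as male. The fit holds 1 term for sex, which does not remove a genotype effect that differs between the sexes.

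Against 1 month, the members that passed this test are given for some of the lists. Of all genes tested, 0.801% had a difference above 0 and 1.95% below 0. Of 15 cholangiocyte genes tested, 5 had a difference above 0 and 0 below. Of 12 immediate early and heat shock genes, 3 were above 0 and 0 below. Of 13 WNT targets, 1 was above 0 and 0 below. Of 18 pericentral genes, 1 was above 0 and 5 were below. Of 18 periportal genes, 1 was above 0 and 3 were below. Of 24 complement and coagulation genes, 0 were above 0 and 7 below. Of 12 male-biased genes, 0 were above 0 and 5 below. Of 25 cytochromes P450, 1 was above 0 and 7 were below. Of 18 bile acid genes, 0 were above 0 and 6 below, and of 20 genes of fatty acid and triglyceride synthesis 0 and 3. The effect on Glul was 2.32 without damage, on the log2 scale, and 0.17 at 4 days, a difference of −2.1 (SE 0.50, adjusted p = 0.054), and that on Cyp2e1 was 1.05 and −0.071, a difference of −1.06 (SE 0.26, adjusted p = 0.0631). For Oat it was larger at 4 days than without damage and than at 50 days, by 1.53 (SE 0.38, adjusted p = 0.0621) and by 2.17 (SE 0.35, adjusted p = 0.043). Those of Znrf3, Slc1a2 and Lect2 (1.82, 2.46 and 1.36 without damage) did not pass the test of a difference from those at 4 days. Among periportal genes the effect on Cyp2f2 differed by −3.54 (SE 0.75, adjusted p = 0.0338) from that without damage, which was −3.67, whereas Hal had −3.64 without damage and −3.85 at 4 days. For Fga the effect differed from that at 1 month by −1.35 (SE 0.27, adjusted p = 0.0242), and for Fgg by −1.5 (SE 0.25, adjusted p = 0.00882). Spp1 and Epcam had effects of −0.50 and −1.77 without damage, and the effects differed by 5.5 (SE 0.66, adjusted p = 0.00312) for Spp1 and by 8.39 (SE 1.34, adjusted p = 0.00814) for Epcam. Jun had effects of −1.15 without damage, 2.17 at 4 days and −0.72 at 50 days, and the effect at 4 days differed by 3.38 (SE 0.64, adjusted p = 0.0188) from the first and by 2.89 (SE 0.30, adjusted p = 0.00959) from the last. Ccnd1 was at 0.032, 2.02 and −0.53, with differences of 2.04 (SE 0.45, adjusted p = 0.0368) and 2.55 (SE 0.44, adjusted p = 0.0476). The effects on Cyp4a12a at 1 month and 50 days were 0.12 and 0.57, with differences of −5.18 (SE 0.65, adjusted p = 0.00312) and −5.68 (SE 0.93, adjusted p = 0.043). Against 1 month, Fgg, Spp1, Epcam and Cyp4a12a kept this result with each of 12 libraries left out. It was lost for Glul (differences −2.64 to −1.21 over those fits) and Cyp2f2 (−4.08 to −3.15) without R&Zflox replicate 1 or either R&Zdel library of 4 days, for Fga (−1.47 to −1.22) without R&Zflox replicate 2 or either R&Zdel library, for Cyp2e1 (−1.45 to −0.75) without R&Zflox replicate 1, R&Zdel replicate 2 or R&Zdel replicate 2 of 1 month, for Ccnd1 (1.77 to 2.38) without R&Zflox replicate 1 or R&Zdel replicate 2, for Jun (3.12 to 3.82) without R&Zflox replicate 1, and for Oat (1.31 to 1.73) without any 1 of the 4 libraries or R&Zdel replicate 1 of 1 month. Against 50 days Jun kept it with each of the 6 libraries left out that could be, the R&Zflox library of 50 days excepted. Oat (1.94 to 2.35), Ccnd1 (2.28 to 2.89) and Cyp4a12a (−6.86 to −5.05) lost it without either R&Zflox library or R&Zdel replicate 1 of 50 days, and Oat and Ccnd1 also without R&Zdel replicate 2 of 4 days. The interferon gene Isg15 had effects of 0.67, 2.03, 1.48 and 1.01 at 1 month, 4, 50 and 170 days, and did not pass the test against 1 month or 50 days.

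**Figure D5:**
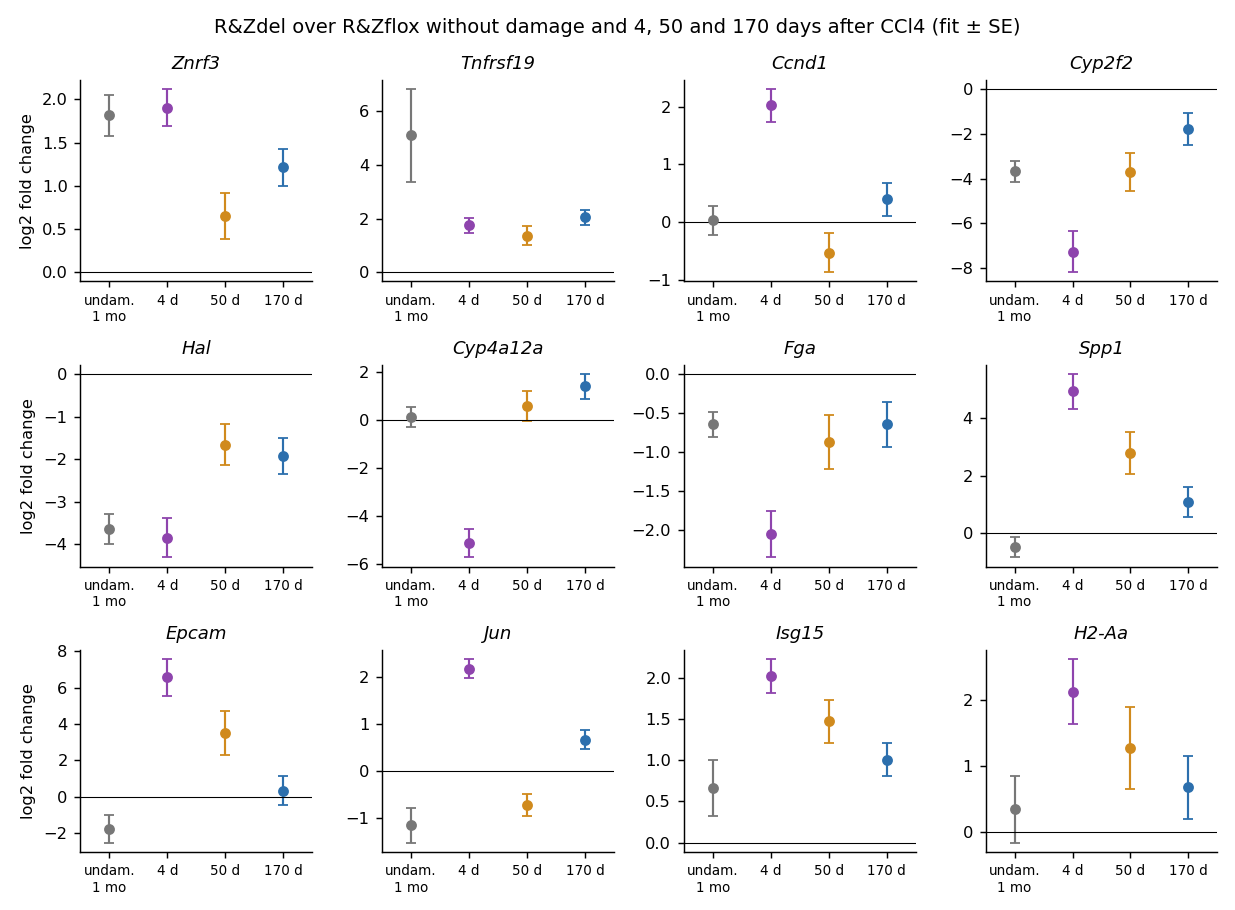
Log2 fold change of R&Zdel over R&Zflox (points, with the SE of the fit as bars) for 12 genes without damage at 1 month and 4, 50 and 170 days after CCl4, on axes that differ between panels. Ccnd1, Cyp4a12a and Jun lie on opposite sides of 0 at 4 and 50 days, whereas Znrf3 and Hal lie at similar values at 4 days and without damage.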

How the data were processed

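Per-library gene counts deposited by the authors (raw, unstranded, from single 50-base Smart-Seq2 reads aligned to mm10; STAR 2.5.0a, Trim Galore and featureCounts 1.5.0-p1 and 1.5.0-p3 are named in the submitters' processing notes) were analysed as whole-number counts. Symbols shared with the series table (34490) were kept. CPM used TMM factors. edgeR 4.0.16 (quasi-likelihood, limma 3.58.1, R 4.3.3) was fitted to 11 chronic damage libraries with one term per group (5 residual degrees of freedom), and to 19 with the undamaged 1 month libraries and a term for sex. p-values are two-sided and Benjamini-Hochberg adjusted over 11358 genes. DESeq2 1.42.0, other filters, normalizations, a replicate block and leave-one-out fits were alternatives. The fit was tested on simulated data. Library totals of 27509849 to 30459422 at 4 days limit precision for genes with few reads.

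Lists (37, with 610 of 612 genes matched) and members were chosen with earlier results of these data known. Named genes were the deleted pair, genes the study names after chronic damage, the 10 most increased and 10 most decreased called genes above 5 CPM without overlap, the 5 most abundant called each way, the up to 4 smallest p per list with defining markers, and the 5 largest differences each way between time points. Other list members were named after their values were seen. A further 7 records without a group and 22 columns of the series table were not used. Promoter windows are from RefSeq.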

Additional observations from a re-analysis of the deposited data

Results flagged for a closer look

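The genotype effect (log2 fold change, R&Zdel over R&Zflox) at 4 days after CCl4 was set against that of the other time points. These results are listed because the effects differed in edgeR's quasi-likelihood test of the interaction at an adjusted p under 0.1. This held for 312 genes against undamaged livers at 1 month, for 170 against 50 days and for 870 against 170 days after CCl4. Differences are given as the effect at 4 days minus the other.

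Against 1 month, the difference was above 0 among the genes named at 9.91 for Krt19, 8.39 for Epcam, 5.8 for AA465934, 5.5 for Spp1, 3.38 for Jun, 3.34 for Ly6a, 3.14 for Hsph1, 2.04 for Ccnd1, 1.95 for Dnajb1 and 1.53 for Oat. It was below 0 at −6.07 for Hsd3b5, −5.18 for Cyp4a12a, −3.54 for Cyp2f2, −3.36 for Ces3b, −3.17 for Alas2, −2.1 for Glul, −1.5 for Fgg, −1.35 for Fga, −1.16 for Fgb, −1.11 for F12 and −1.06 for Cyp2e1. With each of 12 libraries left out, Epcam, Spp1, AA465934, Cyp4a12a, Ces3b and Fgg passed the test in every fit. The result was lost without any 1 of the 4 libraries of 4 days for Ly6a (differences 3.02 to 3.76 over the 12 fits), Hsph1 (2.75 to 3.58), Fgb (−1.27 to −1.04), Krt19 (8.7 to 14.24, also lost without R&Zflox replicate 3 of 1 month) and F12 (−1.25 to −0.91, also lost without R&Zdel replicate 1 or 2 or R&Zflox replicate 2 of 1 month). Hsd3b5 (−7.01 to −3.75) lost it without R&Zflox replicate 1 or either R&Zdel library of 4 days. Dnajb1 (1.78 to 2.19) lost it without R&Zdel replicate 2 or either R&Zflox library, and Alas2 (−3.41 to −2.72) without R&Zdel replicate 2. The losses of Jun, Ccnd1, Oat, Cyp2f2, Glul, Fga and Cyp2e1 are given with their values above. The differences were 13.27 for Rian, 12.74 for Ehf, −10.003 for H2-M3, −8.65 for Fgf21, −7.67 for Pgm1, −7.19 for Olfm3, 13.44 for Tspan8, 13.1 for Sbspon and 12.27 for Cbr3, but for each of these genes one genotype had at most 0.0887 CPM in every library at 1 month, so that these sizes depend on the prior count of the fit and are no bounds. Of these, H2-M3 and Pgm1 passed in all 12 fits. Cbr3, Olfm3, Ehf and Sbspon were lost without any 1 of the 4 libraries of 4 days. Rian and Tspan8 were lost without R&Zdel replicate 2 or either R&Zflox library, and Fgf21 without R&Zflox replicate 2 or either R&Zdel library. Ehf and Sbspon were also lost without R&Zdel replicate 3 or 4 or R&Zflox replicate 2 of 1 month, and Tspan8 without R&Zdel replicate 1 or 2 or R&Zflox replicate 3 of 1 month. Batch and deletion route cannot be told apart from damage here, and the 1 month livers were of both sexes.

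Against 50 days, where the R&Zflox group is 1 library, the difference was above 0 at 8.03 for Nptx1, 6.78 for Gm15459, 5.38 for Ly6a, 5.35 for AA465934, 5.33 for Tsku, 4.61 for Meg3, 3.58 for Hsph1, 3.17 for Atf3, 2.89 for Jun, 2.55 for Ccnd1, 2.17 for Oat and 1.62 for Dnajb1. It was below 0 at −5.68 for Cyp4a12a, −4.27 for Gm15998, −4.16 for Ndrg1, −4.04 for Gm379, −3.57 for Dntt and −2.09 for Alas2. Gm15459, AA465934 and Jun passed with each of 6 libraries left out. The single R&Zflox library of 50 days could not be left out. Without any 1 of the 4 libraries of 4 days or R&Zdel replicate 1 of 50 days the result was lost for Nptx1 (differences 7.19 to 10.33 over the 6 fits), Ly6a (4.66 to 6.88), Tsku (4.97 to 5.82), Meg3 (3.96 to 5.81), Dnajb1 (1.48 to 1.76), Gm15998 (−5.26 to −3.74), Ndrg1 (−4.68 to −3.7), Gm379 (−4.28 to −3.74) and Alas2 (−2.31 to −1.82). Hsph1 (3.26 to 3.86) lost it without R&Zdel replicate 2 or either R&Zflox library of 4 days or R&Zdel replicate 1 of 50 days. Atf3 (2.87 to 3.56) lost it without R&Zflox replicate 1 or R&Zdel replicate 2 of 4 days or R&Zdel replicate 1 of 50 days. Dntt (−3.99 to −2.98) lost it without R&Zdel replicate 2 of 4 days. The losses of Oat, Ccnd1 and Cyp4a12a are given above. Gm15459 and AA465934 were near 0 in R&Zflox livers at 4 days (0.57 and 0.246 CPM, and 0.285 and 0.246 CPM) and at 16.5 to 25.1 and 7.95 to 10.6 CPM in 3 undamaged R&Zflox livers of the same batch. What sets these genes apart was not tested.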

How the results depend on the processing

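The count of genes called 4 days after CCl4, 1729, was 2956 with no filter on low counts and 3135 with no threshold on the fold. It was within 1.5 times of 1729 with DESeq2's Wald test or size factors, the likelihood ratio test, the 4 libraries alone, all symbols, a stricter adjusted p and the replicate number as a block (1678, a pairing given by number only, with a correlation of the deviations of same-numbered libraries of 0.354 at 4 days and −0.351 at 170 days). With a library left out it ran from 787 (without R&Zflox replicate 1) to 1549. Leaving a group with 1 library assumes that it varies like the others. The 312 differences from 1 month became 703 with DESeq2, 635 with the likelihood ratio test, 958 with males alone at 1 month, 556 with no filter, 195 with no term for sex, 518 with the replicate block and 51 to 408 with a library left out. Differences from 50 days, 170, became 656, 600, 1067 (no filter), 97 (replicate block) and 12 to 619. Those from 170 days, 870, became 1549, 1445, 2393 (no filter) and 76 to 1973. Counting genes above 1 CPM at 1 month, chosen after the data were seen, gave 271. The cause of these changes was not tested.

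For named genes, the log2 fold change kept its direction and its side of the threshold in 1401 comparisons with another setting and in 642 with a library left out, fell below the threshold in 8 and 146, and passed it in 22 and 9. Direction turned for genes that were not called, with no filter for Hba-a2 (−0.028) and C1qa (−0.040) and with the replicate block for Fgf21 (0.059). With a library left out it turned within these ranges: Mmp2 −0.84 to 1.88, Hba-a2 −0.053 to 0.19, Cela2a −0.58 to 0.081, Kdm5d −0.058 to 0.39, Ddx3y −0.13 to 0.018, A1bg −2.53 to 0.34, H2-M3 −0.51 to 1.06, Fgf21 −0.75 to 1.12, Timd4 −1.4 to 0.70, Cd68 −0.18 to 0.72, C1qa −0.53 to 0.58, S100a8 −1.06 to 0.28, Glul −0.38 to 1.05, Cyp2e1 −0.47 to 0.24 and Lgr5 −0.044 to 0.59. Differences between time points for named genes lost their call in 149 of the comparisons with a library left out and kept it in 319. Counts of list members called moved by over 1.5 times in 40 comparisons with another setting and in 86 with a library left out, and stayed within that in 478 and 210. Genes with few reads in a group, such as Aqp5 and Mmp7, are limited by depth.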
